A study of Mus musculus with 9 samples.

Results

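The 10 genes described here, *Sox1*, *Sox3*, *Sox14*, *Sox21*, *Sox11*, *Sox8*, *Sox9*, *Sox7*, *Sox17* and *Sox18*, encode SOX transcription factors that act in embryonic lineages. Their RING1B peaks were chosen by name, as every peak of the deposited lists whose nearest gene is exactly 1 of the 10. This gave 22 of 4157 peaks, 9 of 1810 in Eed-/- mESCs and 13 of 2347 in Eed+/+ mESCs. By name, 8 of the 10 genes had an Eed-/- peak and 9 had an Eed+/+ peak. *Sox8* had no Eed-/- peak, and no peak of either list carried the name *Sox14*.

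RING1B was measured by single-end ChIP-seq in mouse embryonic stem cells (mESCs) that are either knockout for *Eed* (Eed-/-) or wild type (Eed+/+), both labelled as C57BL/6 and grown in serum with leukemia inhibitory factor. The labels number 3 Eed-/- RING1B samples, 1 Eed+/+ RING1B sample and 3 Eed+/+ input samples, and 2 CBX7 samples were not analysed here. The study's methods describe the 3 as lanes, and each deposited list is 1 set of calls per genotype. No value therefore has a replicate error, no test of the genotypes was possible, and intervals cover counting error only. The study names more than 1 Eed-/- line, and which of them gave these lanes is not given in the sources used here, so genotype and cell line cannot be told apart.

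RING1B is the catalytic subunit of Polycomb repressive complex 1 (PRC1), which monoubiquitylates histone H2A. EED is a core subunit of PRC2, the complex that methylates H3K27, a mark that CBX subunits of PRC1 can bind. In mESCs both complexes are found mainly at CpG islands of silent developmental genes. SOX proteins bind DNA through an HMG box and are grouped by the similarity of that box. The SoxB1 genes *Sox1* and *Sox3* act in neural progenitors, the SoxB2 genes *Sox14* and *Sox21* in neurons and their precursors, and the SoxC gene *Sox11* in neuronal differentiation. The SoxE genes *Sox8* and *Sox9* act in neural crest and testis, and *Sox9* also in cartilage. The SoxF genes *Sox7*, *Sox17* and *Sox18* act in vessels, and *Sox17* also in definitive endoderm.

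Sequences at the summits, the points of highest tag pileup, are shown to let sites found in both genotypes be read beside sites found only in Eed+/+ cells. They were read from the mm9 genome in windows of 160 bp around the summit, along the strand of the gene, with UTR bases and noncoding exons removed. Capitals mark CG dinucleotides. The *Sox1* upstream site and the *Sox17* gene body had a peak in both genotypes, and the other 3 sites had a peak only in Eed+/+ cells.
Sox1 upstream site, Eed-/- summit, chr8:12386031-12386166, + strand: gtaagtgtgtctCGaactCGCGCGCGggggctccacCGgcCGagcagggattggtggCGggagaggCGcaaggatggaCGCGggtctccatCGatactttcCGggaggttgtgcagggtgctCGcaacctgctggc
Sox17 gene body, Eed-/- summit, chr1:4482456-4482615, - strand: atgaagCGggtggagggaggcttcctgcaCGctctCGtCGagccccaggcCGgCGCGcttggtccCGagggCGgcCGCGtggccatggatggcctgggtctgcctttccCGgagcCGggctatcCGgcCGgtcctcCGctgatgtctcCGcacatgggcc
Sox1 gene, Eed+/+ summit, chr8:12396994-12397153, + strand: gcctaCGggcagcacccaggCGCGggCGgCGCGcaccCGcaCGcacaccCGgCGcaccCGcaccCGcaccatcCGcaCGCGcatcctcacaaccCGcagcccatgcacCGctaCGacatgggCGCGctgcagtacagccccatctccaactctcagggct
Sox17 upstream, Eed+/+ summit, chr1:4487063-4487222, - strand: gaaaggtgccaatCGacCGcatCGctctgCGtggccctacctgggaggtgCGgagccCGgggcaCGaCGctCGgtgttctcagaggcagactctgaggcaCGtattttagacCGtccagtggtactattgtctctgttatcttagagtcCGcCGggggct
Sox8 gene, Eed+/+ summit, chr17:25707078-25707237, - strand: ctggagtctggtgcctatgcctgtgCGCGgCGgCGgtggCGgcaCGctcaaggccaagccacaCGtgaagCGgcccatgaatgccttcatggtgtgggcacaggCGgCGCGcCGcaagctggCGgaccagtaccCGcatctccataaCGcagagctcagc
The *Sox1* upstream window held 14 CG in 136 bp and the *Sox17* gene body window 17 CG in 160 bp. The 3 windows shown without an Eed-/- peak held 20 CG at *Sox1*, 13 CG upstream of *Sox17* and 15 CG at *Sox8*. Raw CG counts of these few windows therefore overlapped between sites with and without an Eed-/- peak, and the *Sox1* upstream window was shorter. The flanking *Sox1* windows upstream and downstream, not shown and also without an Eed-/- peak, held fewer, 11 and 6 CG in 160 bp. Sites in both genotypes are given at Eed-/- summits and the others at Eed+/+ summits. Over whole Eed+/+ peaks, median CG per 100 bp was 5.89 at the 8 Sox peaks with an Eed-/- peak. It was 4.42 at the 5 without one. The ranges, 4.43 to 10.4 and 3.19 to 8.46, overlapped. Over the whole Eed+/+ list the medians were 5.51 with and 4.40 without an Eed-/- peak.

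Summits of further genes are shown next because a few of their windows shared a short stretch of sequence with the window of another member. The *Sox1* gene window above belongs to the same comparison. The *Sox14* window lies over the annotated *Sox14* gene, in a peak that the files name after another gene.
Sox3 gene, Eed+/+ summit, chrX:58145673-58145832, - strand: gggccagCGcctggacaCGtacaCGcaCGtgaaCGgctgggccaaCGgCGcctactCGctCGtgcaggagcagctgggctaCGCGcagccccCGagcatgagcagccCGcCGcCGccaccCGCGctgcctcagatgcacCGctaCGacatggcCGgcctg
Sox14 gene, Eed+/+ summit, chr9:99775420-99775579, - strand: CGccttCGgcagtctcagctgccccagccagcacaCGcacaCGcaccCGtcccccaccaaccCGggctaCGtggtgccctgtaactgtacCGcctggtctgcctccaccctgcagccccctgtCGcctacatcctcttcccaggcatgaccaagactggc
Sox21 gene, Eed+/+ summit, chr14:118634030-118634137, - strand: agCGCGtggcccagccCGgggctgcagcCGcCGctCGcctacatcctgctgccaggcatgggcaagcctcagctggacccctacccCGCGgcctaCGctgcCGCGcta
Sox18 gene, Eed+/+ summit, chr2:181405961-181406120, - strand: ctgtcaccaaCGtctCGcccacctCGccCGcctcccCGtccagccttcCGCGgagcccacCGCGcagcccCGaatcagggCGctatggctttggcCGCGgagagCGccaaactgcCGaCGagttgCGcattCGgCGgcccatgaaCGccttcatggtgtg
Among 97 comparisons of Eed+/+ summit windows between different genes, made over the full 160 bp with UTR bases included, the longest exact stretch in common had a median length of 8 bases, and it reached 12 bases or more in 4. The SoxB1 genes *Sox1* and *Sox3* shared the 19 bases atgcacCGctaCGacatgg, which began 1577 bp from the *Sox1* start, where the summit was at 1555 bp, and 905 bp from the *Sox3* start, where the summit was at 852 bp. The SoxB2 genes *Sox14* and *Sox21* shared the 13 bases tCGcctacatcct, at 1205 bp and a summit of 1163 bp in *Sox14*, and at 2148 bp and a summit of 2194 bp in *Sox21*. *Sox8* and *Sox18*, of different subgroups, shared the 14 bases gccttcatggtgtg, which lie in the part of each gene that encodes the HMG box. They began at 475 bp with a summit of 473 bp in *Sox8*, and at 370 bp with a summit of 304 bp in *Sox18*. Other pairs within a subgroup shared less. The longest stretch was 8 bases between *Sox8* and *Sox9*, and 7 to 9 bases among *Sox7*, *Sox17* and *Sox18*. The remaining stretch, cCGcCGcCGccacc, was common to *Sox3* and *Sox17* and consists mostly of a short repeat. These matches describe sequence around the summits, and no test was made of them. The summits concerned lay in annotated coding sequence except at *Sox1*, which has no gene model in the annotation used.

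Over the named peaks, 7 of 9 Eed-/- summits and 7 of 13 Eed+/+ summits lay in annotated coding sequence. Over the whole lists the shares were 37.7% in Eed-/- and 40.2% in Eed+/+ cells. *Sox1* has no model in the annotation used, and its summits fall in the gene *Gm5607*, which spans it there. Summits lay inside a CpG island, found from the sequence, in 8 of 9 Eed-/- peaks and 10 of 13 Eed+/+ peaks, against 82.4% of all Eed-/- peaks and 78.9% of all Eed+/+ peaks. The peaks covered the start of their own gene in 6 of 9 cases in Eed-/- and 9 of 13 in Eed+/+ cells. Over all peaks, 72.5% in Eed-/- and 70.5% in Eed+/+ covered some coding gene start. *Sox7* was the only named gene whose summits lay just upstream of its start in both genotypes, 187 bp upstream in Eed-/- and 173 bp upstream in Eed+/+ cells.

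**Figure D1:**
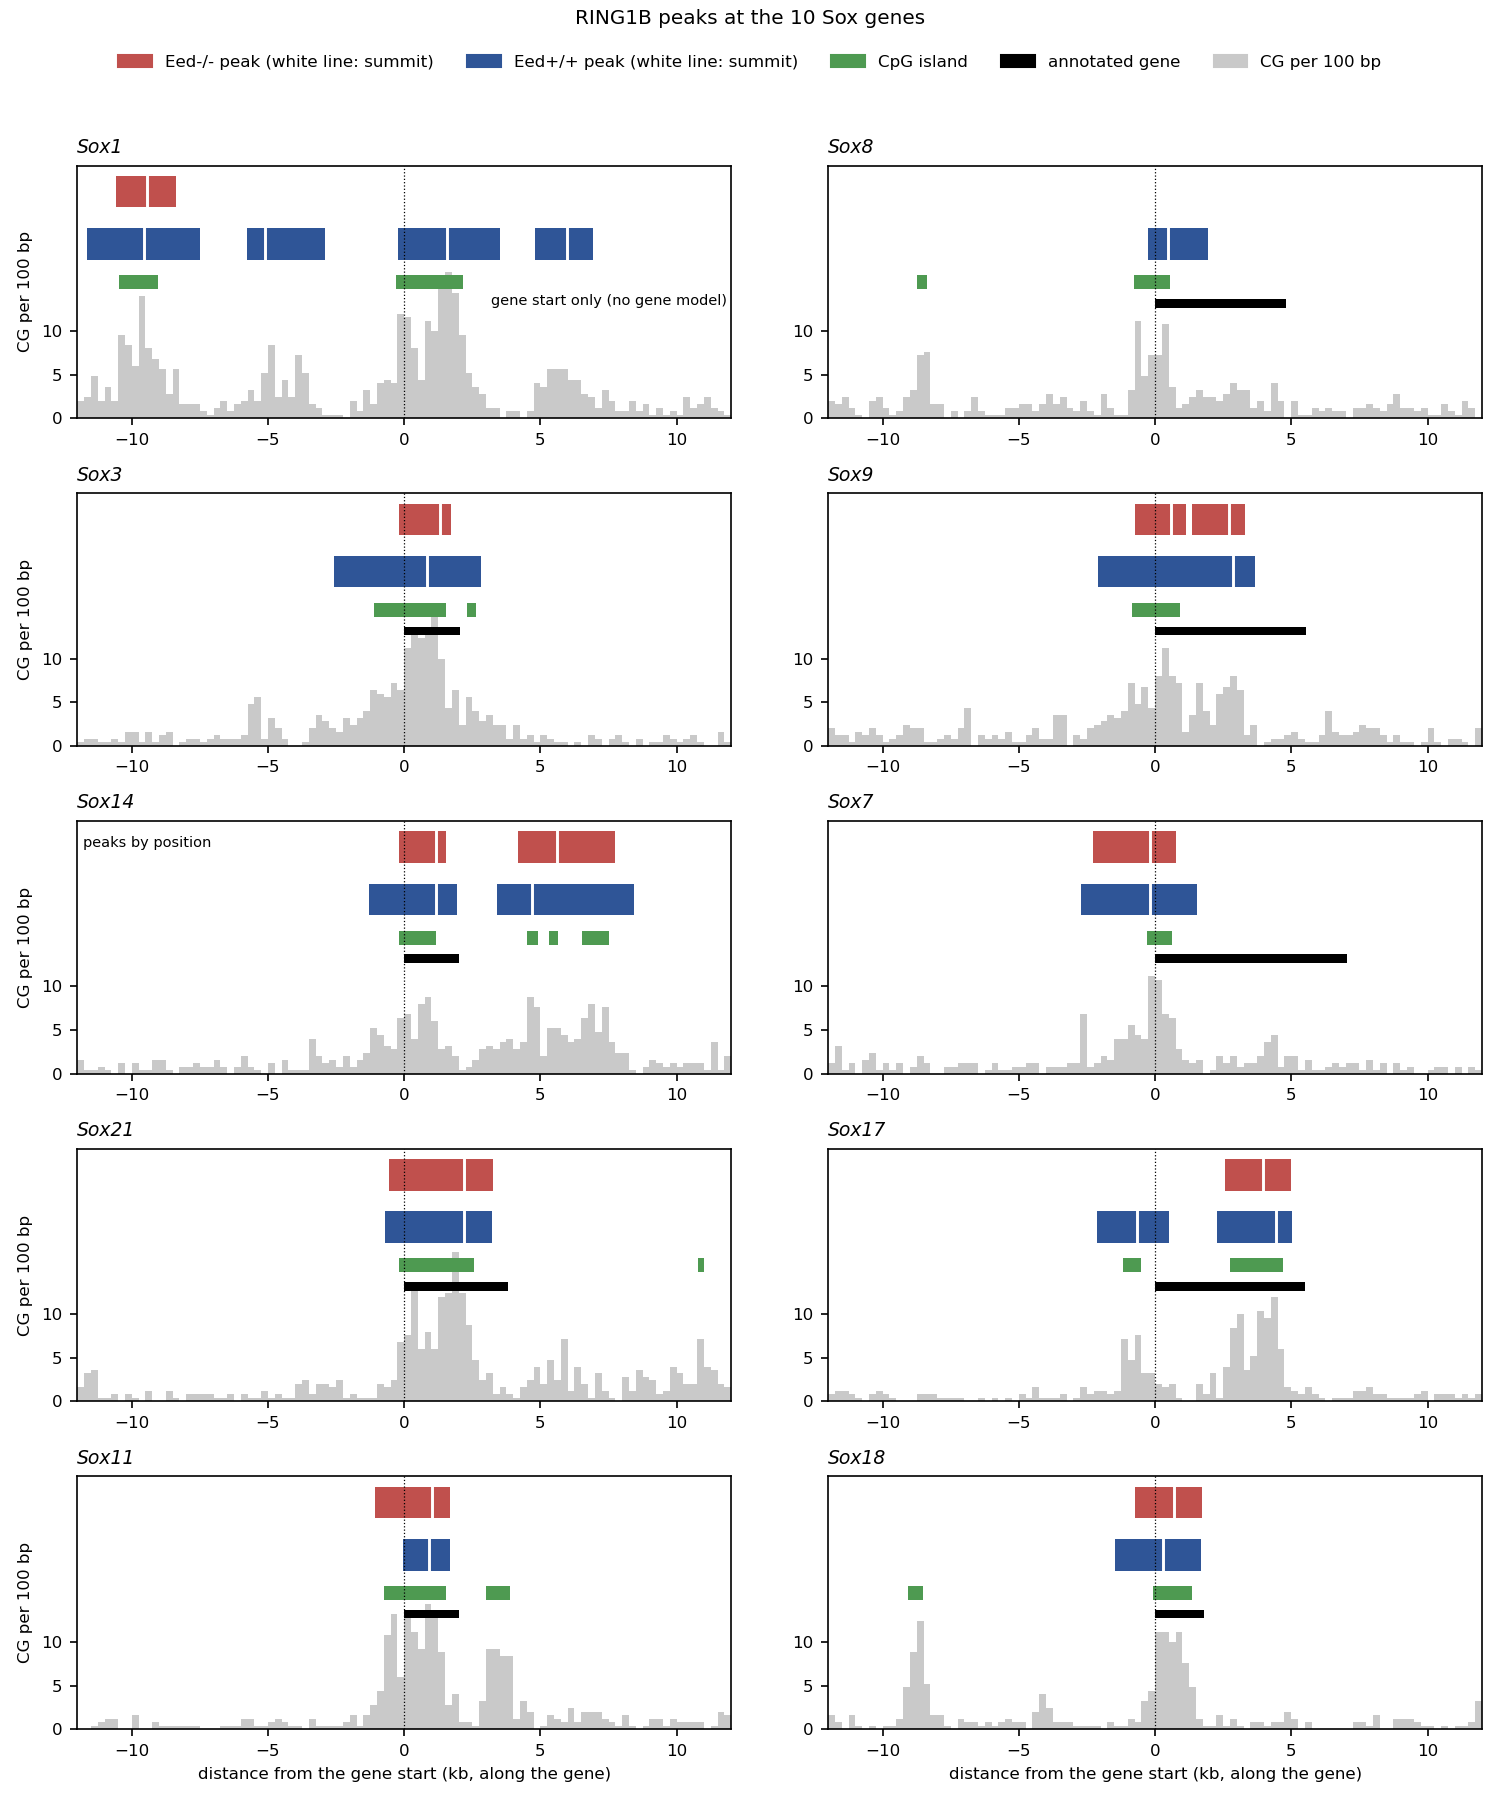
RING1B peaks at the 10 Sox genes against the distance from each gene start in kb, with Eed-/- peaks (red) above Eed+/+ peaks (blue), summits as white lines, CpG islands in green, annotated genes in black and CG dinucleotides per 100 bp in grey bins of 250 bp. At *Sox1* and *Sox17* only 1 of the Eed+/+ peaks has an Eed-/- peak above it, at *Sox8* none has, and at *Sox9* a single Eed+/+ peak lies under 2 Eed-/- peaks.

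By name, 8 of these 10 Sox genes had a RING1B peak in Eed-/- cells, at places where Eed+/+ cells had a peak. The *Sox1* peak among them was centred 9464 bp upstream of that gene, and the coding start of *Gm5607* was nearest, at 284 bp. The genes were chosen with earlier results of these data known. Of all 22239 annotated coding genes, 5% had a peak by name in both lists. Sharing 1 bp or more counted as an overlap. Each of the 9 Eed-/- peaks met an Eed+/+ peak (100%, exact 95% interval 66.4 to 100%), against 73.1% of all Eed-/- peaks. In the other direction, 8 of 13 Eed+/+ peaks overlapped an Eed-/- peak (61.5%, 31.6 to 86.1%), close to the 53.1% of all Eed+/+ peaks, which lies inside this interval. The Eed-/- peaks covered 47.9% of the 44689 bp under Eed+/+ peaks, against 42.4% over the whole lists.

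The level of RING1B in a peak is given as tags per kb of peak per 1000000 mapped tags, without subtraction of input. The Eed-/- peaks of the Sox genes had levels from 1.01 to 1.66 with a median of 1.36, and the Eed+/+ peaks from 3.31 to 12.4 with a median of 6.47. The 2 ranges did not overlap at the Sox genes. Over the whole lists the levels ran from 0.849 to 7.01 in Eed-/- and from 1.78 to 22.4 in Eed+/+ cells, so there the ranges overlapped. In each overlapping pair the level was lower in Eed-/-, in 8 of 8 Sox pairs and in 100% of all 1247 pairs, so the direction is not particular to these genes. The ratio of the Eed-/- to the Eed+/+ level had a median of 0.195 over the 8 Sox pairs, with a range of 0.132 to 0.254. Over all pairs the median was 0.225, with quartiles of 0.179 and 0.303. These ratios divide the tags of each peak by the width of that peak. In an alternative, the tags of all overlapping Eed-/- peaks were divided by the width of the Eed+/+ peak. The median was then 0.121 over the 8 Sox pairs (range 0.091 to 0.349) and 0.188 over all pairs. Eed-/- tags outside called peaks are not in the lists and counted as none. That ratio therefore also reflects how narrow the Eed-/- peak is.

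These levels have to be read with the depth of the lists. The Eed-/- immunoprecipitate had 4.18 times as many mapped tags as the Eed+/+ one, and every deposited peak held at least 101 tags. At the depth of the Eed+/+ library none of the 8 paired Eed-/- peaks would have kept more than 100 tags, and 120 of the 1810 Eed-/- peaks in the whole list would have. The lowest level in the Eed+/+ list was 1.78, above the highest Eed-/- level of any named Sox peak. Of the Eed-/- peaks, 4 of 9 had an FDR of 1% or less, those at *Sox17* (0.50%), *Sox18* (0.64%), *Sox21* (0.74%) and *Sox1* (0.80%), against 24.1% of all Eed-/- peaks. All 13 Eed+/+ peaks passed that limit, as did 99.9% of the whole Eed+/+ list. When only peaks at that limit were kept, 4 of 13 Eed+/+ peaks had an Eed-/- peak, against 15.4% over the whole lists, and the covered share was 24.3%.

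**Figure D2:**
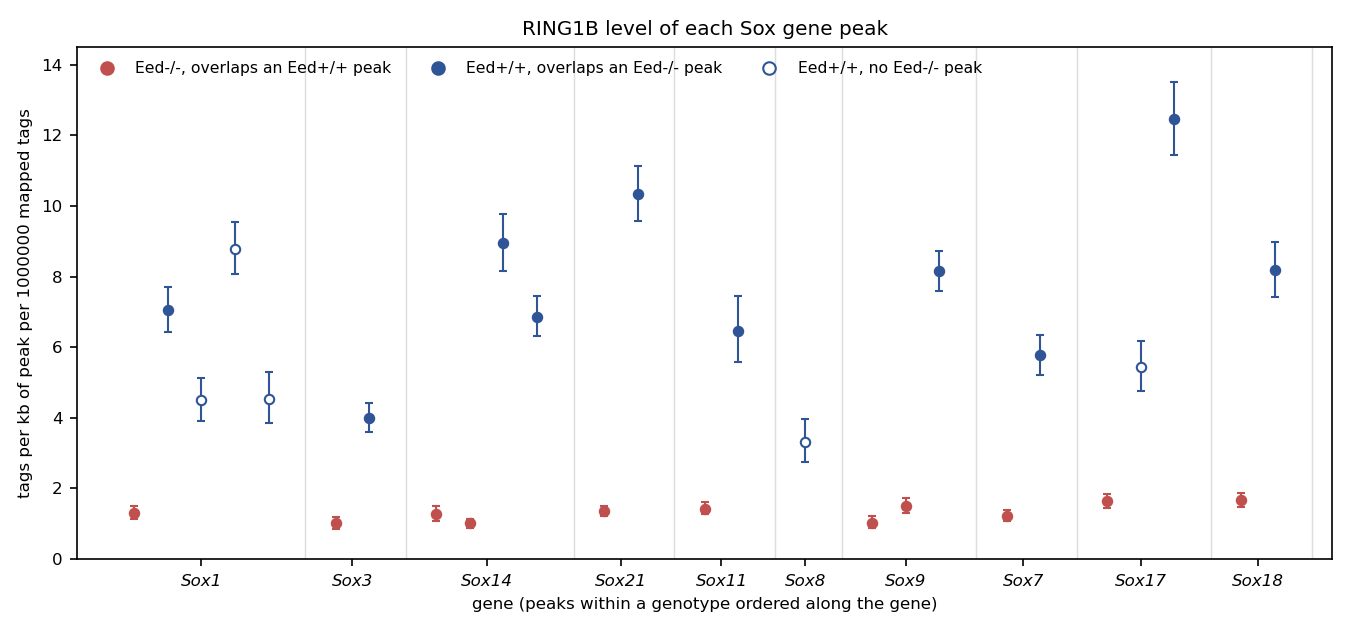
RING1B level (tags per kb of peak per 1000000 mapped tags) of each Sox gene peak, with Eed-/- peaks (red) left of Eed+/+ peaks (blue) for each gene and exact 95% Poisson intervals as bars; open circles are Eed+/+ peaks with no Eed-/- peak, and the *Sox14* peaks were taken by position. The Eed-/- levels sit between 1.01 and 1.66 at every gene that has one, below each Eed+/+ level.

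*Sox1*, which marks early neural progenitors, had 1 RING1B peak in Eed-/- cells and 4 in Eed+/+ cells. Its start was placed on chromosome 8 at 12395519 (mm9, + strand) by an exact match of the RefSeq promoter to the genome. The single Eed-/- peak ran from 12384950 to 12387160, centred 9464 bp upstream of the start, with 205 tags, 5.94-fold enrichment over background and a level of 1.32 (1.14 to 1.51). The Eed+/+ peak from 12383893 to 12388029, centred 9558 bp upstream, enclosed the Eed-/- peak and held 490 tags at 48.2-fold enrichment for a level of 7.04 (6.43 to 7.70). The ratio of the levels was 0.187 (0.158 to 0.221). This upstream site carries a CpG island of 1445 bp and lies at the start of the annotated gene *Gm5607*.

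The other 3 *Sox1* peaks were listed only in Eed+/+ cells. The peak from 12395284 to 12399043 covered the gene start and held 556 tags at 21.1-fold enrichment for a level of 8.79, the highest level of the 4. The flanking peaks, from 12389755 to 12392599 and from 12400328 to 12402453, had levels of 4.49 and 4.53 and no CpG island. The start of *Sox1* thus had an island of 2475 bp and a high Eed+/+ level but no Eed-/- peak in the list. Over the width of that Eed+/+ peak, an Eed-/- signal at 0.043 of the Eed+/+ level would have reached 101 tags. That is a level of 0.382, below 0.849, the lowest level in the Eed-/- list, so reaching 101 tags need not suffice for a listed peak. The FDR limit applied as well, and the FDR of such a signal cannot be computed from the lists. The study states that its thresholds missed some Eed-/- RING1B peaks.

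*Sox3* (chromosome X, 58144545 to 58146605, - strand), a single-exon SoxB1 gene needed in the developing forebrain and pituitary, had a peak in both genotypes, narrower in Eed-/- cells. In Eed-/- cells the peak ran from 58144871 to 58146806 and held 138 tags at 4.27-fold enrichment for a level of 1.01 (0.85 to 1.20), the lowest Eed-/- level of the named peaks. In Eed+/+ cells it ran from 58143779 to 58149167, covered all of the gene and held 362 tags at 20.0-fold enrichment for a level of 3.99 (3.59 to 4.43). The ratio was 0.254 (0.207 to 0.309), the highest of the 8 pairs when each peak is taken over its own width. The Eed-/- peak was 1936 bp wide and the Eed+/+ peak 5389 bp wide. With the tags of the Eed-/- peak taken over the Eed+/+ width, the ratio was 0.091 (0.074 to 0.111), the lowest of the 8. Eed-/- tags outside the called peak are not counted in it. The Eed-/- summit lay at 1298 bp and the Eed+/+ summit at 852 bp from the gene start, both in coding sequence.

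*Sox21* (chromosome 14, 118632454 to 118636252, - strand), which opposes SoxB1 factors during neurogenesis, had peaks of nearly the same extent in both genotypes. Eed-/- cells had a peak that ran from 118633010 to 118636808 and held 363 tags at 6.24-fold enrichment for a level of 1.36 (1.22 to 1.51). Eed+/+ cells had a peak that ran from 118633027 to 118636947 and held 681 tags at 34.7-fold enrichment for a level of 10.3 (9.57 to 11.1). The Eed-/- peak was 0.969 times as wide as the Eed+/+ peak and the summits were 8 bp apart, whereas the ratio of the levels, 0.132 (0.115 to 0.150), was at the low end of the 8 pairs. Over the Eed+/+ width it was 0.127 (0.112 to 0.145). At this gene the width thus hardly differed while the level did.

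*Sox14*, the other SoxB2 gene, which is expressed in groups of interneurons, has no peak by name. Peaks of both lists nevertheless lay over the annotated gene on chromosome 9 from 99774644 to 99776663 (- strand), and the files name them after the neighbouring gene *Cldn18*. They were looked up by position after the names had been seen to be missing, and they are kept out of the counts above. The Eed-/- peak over the gene ran from 99775117 to 99776866 and held 157 tags at 4.86-fold enrichment for a level of 1.28 (1.08 to 1.49). The Eed+/+ peak over the gene ran from 99774742 to 99777955 and held 483 tags at 46.6-fold enrichment for a level of 8.94 (8.16 to 9.77). Both cover the gene start, and the ratio was 0.143 (0.118 to 0.171). A further pair lay downstream of the gene, where the level was 1.01 (0.89 to 1.14) in Eed-/- and 6.86 (6.31 to 7.44) in Eed+/+ cells. By position, then, *Sox14* had RING1B peaks in both genotypes. With these peaks added, 11 of 11 Eed-/- peaks and 10 of 15 Eed+/+ peaks overlapped one of the other list, and the median ratio was 0.186 over 10 pairs.

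*Sox11* (chromosome 12, 28025562 to 28027574, - strand), a single-exon SoxC gene of differentiating neurons, was the only gene with a wider peak in Eed-/- cells. The peak in Eed-/- cells ran from 28025906 to 28028646 over 2741 bp and held 276 tags at 5.78-fold enrichment for a level of 1.43 (1.27 to 1.61). The peak in Eed+/+ cells ran from 28025889 to 28027626 over 1738 bp and held 189 tags at 17.3-fold enrichment for a level of 6.47 (5.58 to 7.46). The ratio was 0.221 (0.183 to 0.268). The peaks ended 17 bp apart within the gene, and the Eed-/- peak reached 1020 bp further upstream, across the rest of a CpG island of 2275 bp.

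*Sox8* (chromosome 17, 25702837 to 25707631, - strand), a SoxE gene of neural crest and testis, was the named gene with the weakest Eed+/+ peak and had no Eed-/- peak. In Eed+/+ cells the peak ran from 25705699 to 25707905 and held 123 tags at 7.45-fold enrichment, with an FDR of 0.03% and a level of 3.31 (2.75 to 3.95). Its fold enrichment ranked at 2132 of the 2347 Eed+/+ peaks. Over that width an Eed-/- signal needed 0.196 of the Eed+/+ level to reach 101 tags. That is a level of 0.651, below 0.849, the lowest level in the Eed-/- list. The ratios of the 8 pairs over the Eed+/+ width had a median of 0.121, and *Sox11* alone, at 0.349, was above 0.196. Those ratios count only tags inside called Eed-/- peaks, and at *Sox11* they include tags that lie outside the Eed+/+ peak. The value of 0.196 counts any tag over the width, so the values are not like measures. Why *Sox8* had no Eed-/- peak in the list was not tested.

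*Sox9* (chromosome 11, 112643538 to 112649074, + strand), the SoxE regulator of cartilage and testis development, had the most enriched of the named Eed+/+ peaks. In Eed-/- cells 2 peaks were called. That from 112642785 to 112644669 covered the gene start and held 137 tags at 5.11-fold enrichment for a level of 1.03 (0.87 to 1.22). That from 112644889 to 112646839 lay inside the gene and held 207 tags at 4.92-fold enrichment for a level of 1.51 (1.31 to 1.73). Eed+/+ cells had a peak that ran from 112641458 to 112647189, enclosed both and held 785 tags at 56.0-fold enrichment for a level of 8.14 (7.58 to 8.74). The ratio for the longer overlap, which was the peak inside the gene, was 0.185 (0.158 to 0.216). The inner Eed-/- peak and the Eed+/+ peak had their summits in the coding sequence, at 2729 bp and 2875 bp from the start, away from the CpG island of 1796 bp at the start. The inner Eed-/- peak was the only named Eed-/- peak that touched no island.

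*Sox7* (chromosome 14, 64562511 to 64569569, + strand), a SoxF gene of the developing vasculature, had a peak over its promoter in both genotypes. In Eed-/- cells the peak ran from 64560219 to 64563295 and held 264 tags at 4.45-fold enrichment for a level of 1.22 (1.08 to 1.38). The peak in Eed+/+ cells ran from 64559774 to 64564041 and held 414 tags at 24.7-fold enrichment for a level of 5.77 (5.23 to 6.35). The ratio was 0.211 (0.180 to 0.247), and the Eed-/- peak lay inside the Eed+/+ peak.

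*Sox17* (chromosome 1, 4481009 to 4486494, - strand), the SoxF gene of definitive endoderm and arterial endothelium, had a gene body peak in both genotypes and a peak at its start only in Eed+/+ cells. Eed-/- cells had a peak that ran from 4481512 to 4483920 and held 278 tags at 5.62-fold enrichment for a level of 1.64 (1.45 to 1.85). The Eed+/+ gene body peak ran from 4481460 to 4484225 and held 579 tags at 41.2-fold enrichment for a level of 12.4 (11.5 to 13.5), the highest level of the named peaks and 34th of the 2347 Eed+/+ peaks. The ratio, 0.132 (0.114 to 0.152), was as low as at *Sox21*, and over the Eed+/+ width it was 0.115 (0.099 to 0.133). The other Eed+/+ peak, from 4485996 to 4488632, covered the gene start and held 241 tags at 13.4-fold enrichment for a level of 5.44 (4.77 to 6.17). The gene body carries a CpG island of 1972 bp and the upstream site an island of 661 bp. An Eed-/- signal at 0.100 of the Eed+/+ level over the width of the upstream peak would have reached 101 tags. That is a level of 0.544, below 0.849, the lowest level in the Eed-/- list. The value of 0.100 counts any tag over the width, whereas the gene body ratio counts only tags inside the called Eed-/- peak. The 2 are not like measures, and why no Eed-/- peak was listed upstream was not tested.

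*Sox18* (chromosome 2, 181404541 to 181406345, - strand), a SoxF gene needed for lymphatic vessels, had the highest Eed-/- level of the named peaks. The peak in Eed-/- cells ran from 181404609 to 181407085 and held 290 tags at 4.65-fold enrichment for a level of 1.66 (1.48 to 1.87). In Eed+/+ cells it ran from 181404649 to 181407811 and held 435 tags at 20.4-fold enrichment for a level of 8.18 (7.43 to 8.99). The ratio was 0.203 (0.175 to 0.237). The Eed-/- peak covered 96.2% and the Eed+/+ peak 94.0% of the gene.

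In order, the ratios over each peak's own width were 0.132 at *Sox21* and *Sox17*, 0.185 at *Sox9*, 0.187 at *Sox1*, 0.203 at *Sox18*, 0.211 at *Sox7*, 0.221 at *Sox11* and 0.254 at *Sox3*. The intervals of *Sox21* (up to 0.150) and *Sox17* (up to 0.152) ended below the lower bounds of *Sox9* and *Sox1* (both 0.158). At *Sox9* this depends on the pairing, which used the inner Eed-/- peak with a level of 1.51. The Eed-/- peak at the *Sox9* start, inside the same Eed+/+ peak, had a lower level of 1.03. Every pair of neighbours from *Sox9* to *Sox3* had intervals that overlapped, so their order is not resolved by the tag counts. The SoxF genes spanned 0.132 to 0.211 and the SoxB genes 0.132 to 0.254, so these subgroups overlapped. The order depended on the width used. Over the Eed+/+ width, with the tags of all overlapping Eed-/- peaks counted, the ratios were 0.091 at *Sox3*, 0.100 at *Sox1*, 0.105 at *Sox9*, 0.115 at *Sox17*, 0.127 at *Sox21*, 0.152 at *Sox7*, 0.159 at *Sox18* and 0.349 at *Sox11*. *Sox3* was thus at the top of the first order and at the bottom of the second. The second order leaves out Eed-/- tags outside called peaks, so it follows the widths of the peaks as well as their levels. At *Sox11* the second ratio includes Eed-/- tags that lie outside the Eed+/+ peak.

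**Figure D3:**
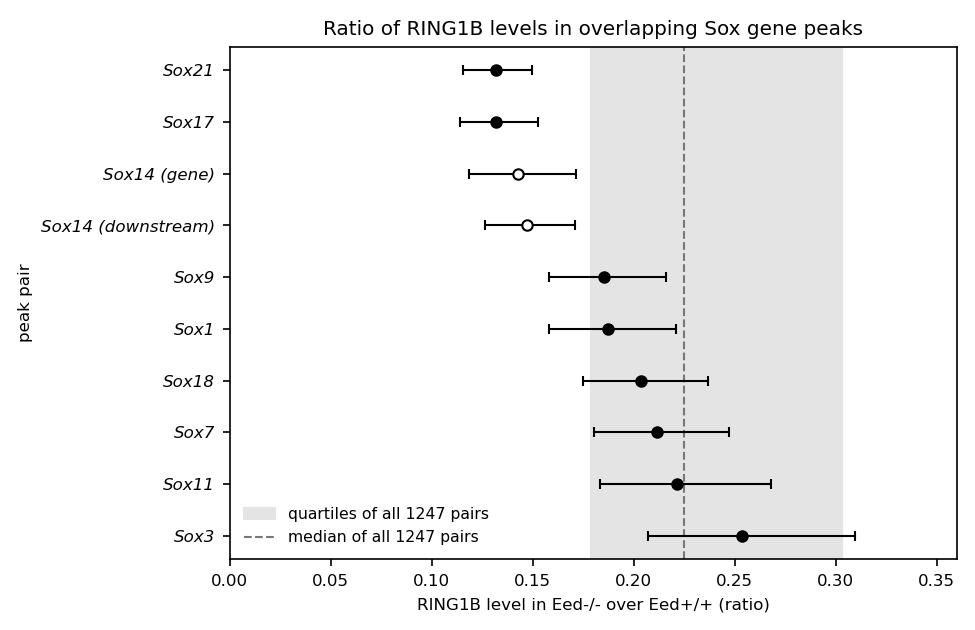
Ratio of the RING1B level in Eed-/- to that in Eed+/+ cells for each overlapping Sox pair, each level over the width of its own peak, with exact 95% intervals from the conditional binomial as bars; filled circles are pairs by name and open circles the *Sox14* pairs by position, the grey band spans the quartiles of all 1247 pairs (0.179 to 0.303) and the dashed line is their median (0.225). *Sox21* and *Sox17* lie below the band at 0.132, and *Sox3* is the only named pair with a ratio above the dashed line.

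The fold enrichment given by the authors ranked the genes in another way. The ratio of the Eed-/- to the Eed+/+ fold enrichment was lowest at *Sox9* (0.088) and highest at *Sox11* (0.334), with a median of 0.180 over the 8 pairs and of 0.248 over all pairs. Within the Eed+/+ list the Sox peaks had a median fold enrichment of 21.1, against 16.2 for all peaks, and 3 of 13 lay in the top 10% of the list by rank. Within the Eed-/- list they had a median of 5.11, against 4.91 for all peaks. The Eed+/+ peaks with an Eed-/- peak had a median fold enrichment of 29.7 (range 17.3 to 56.0), and the 5 without one had a median of 14.7 (range 7.45 to 26.2). Over the whole Eed+/+ list the medians were 19.7 with and 13.3 without an Eed-/- peak.

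Peaks were mostly narrower in Eed-/- cells, and the part of the Eed+/+ peaks that Eed-/- peaks covered held more CG than the rest, as over the whole lists. The ratio of the Eed-/- to the Eed+/+ width had a median of 0.752 over the 8 pairs (range 0.340 at *Sox9* to 1.58 at *Sox11*), against 0.833 over all pairs. In 5 of 8 pairs the Eed+/+ peak enclosed the whole Eed-/- peak, against 57.4% of all pairs. The summits were 8 to 495 bp apart with a median of 127.5 bp, against 97 bp over all pairs. In the 6 pairs with at least 200 bp of the Eed+/+ peak left uncovered, the covered part had more CG per 100 bp than the uncovered part in 6 of 6, against 97.9% of the 861 such pairs in the whole lists. The medians were 6.997 in the covered and 2.76 in the uncovered part of the Sox pairs, and 6.49 in the covered and 2.28 in the uncovered part of all such pairs. At *Sox18* (6.73 covered, 0.689 uncovered) and *Sox17* (7.26 covered, 0.840 uncovered) the uncovered part was near the genome mean of 0.834. At *Sox3*, the values were 11.2 in the covered and 4.34 in the uncovered part.

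**Figure D4:**
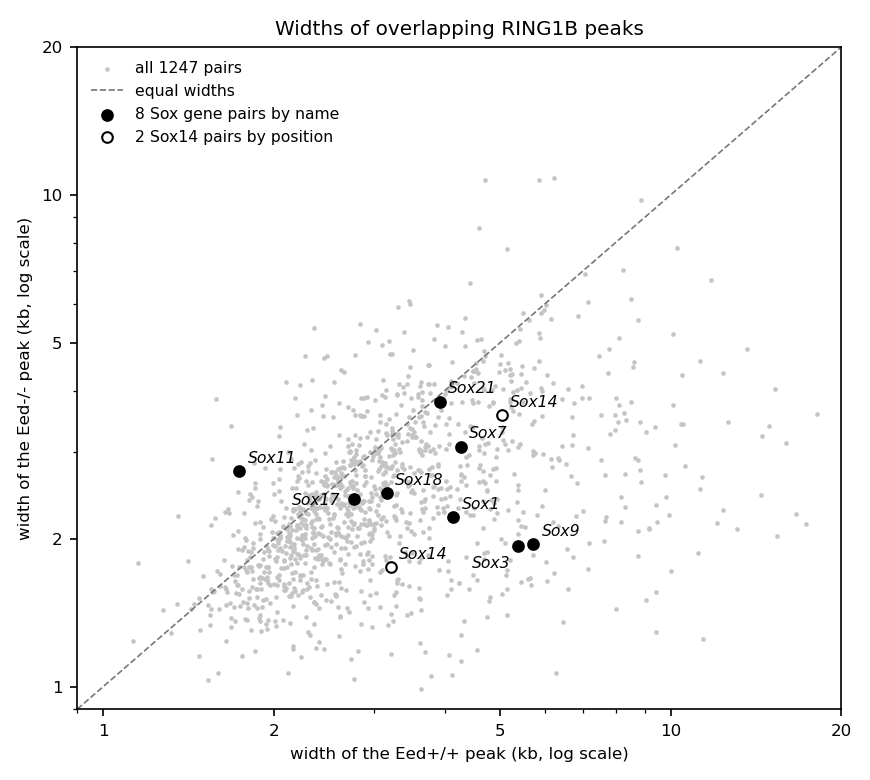
Width of the Eed-/- peak (vertical) against that of the overlapping Eed+/+ peak (horizontal) in kb on log scales, for the 8 Sox pairs by name (filled), the 2 *Sox14* pairs by position (open) and all 1247 pairs (grey), with a dashed line at equal widths. *Sox11* lies above the line with a width ratio of 1.58, *Sox21* lies near it at 0.969, and *Sox3* and *Sox9* lie farthest below it at 0.359 and 0.340.

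Other Sox genes and genes of SOX partners were counted in the same way. Of 10 other Sox genes, 4 had a peak by name in both lists, *Sox4*, *Sox6*, *Sox13* and *Sox30*, against 5% of all 22239 annotated coding genes. The ratio of the levels was 0.446 at *Sox13*, 0.527 at *Sox30*, 0.273 at *Sox4* and 0.146 at *Sox6*. *Sox2*, a pluripotency factor that mESCs express, had an Eed-/- peak by name with 207 tags and a level of 0.95, which was 10288 bp from the gene, and no Eed+/+ peak by name. *Sox5*, *Sox10*, *Sox12*, *Sox15* and *Sry* had no peak by name in either list, but an Eed+/+ peak named after another gene overlapped *Sox5* and another overlapped *Sox10*. Of 12 genes whose products are known partners or co-regulators of SOX proteins, such as POU and PAX factors, 10 had a peak by name in both lists, against the same 5% of all genes; these partners were chosen with earlier results known. Of the rest, *Pou3f4* had one only in Eed+/+ cells, and *Pou5f1*, expressed in mESCs, had none.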

How the data were processed

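RING1B peaks of Eed-/- and Eed+/+ mESCs were taken from 2 deposited lists, 1 per genotype. The authors used bowtie for alignment to mm9, with unique positions only (70343706 mapped tags for Eed-/- and 16814546 for Eed+/+), and MACS for peak calling at an FDR below 2% and more than 100 tags. For tool versions and the MACS control library, nothing is stated in the sources used here. The deposited attributes are raw tag counts, a fold enrichment ratio, FDR in percent, a score from the p-value, the summit and the nearest gene, and other values that mark overlaps between lists were not used. The Sox genes, lists and alternatives were chosen with earlier results of these data known. All 10 genes are named with every peak, 10 other Sox genes are named with values where they have a peak, and 12 partner genes are counted.

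A level is tags per kb of peak per 1000000 mapped tags. To form pairs, the Eed-/- peak sharing the most bases was chosen for each Eed+/+ peak. Intervals are exact at 95% (Poisson for levels, conditional binomial for ratios, Clopper-Pearson for shares). They cover counting error only, since each genotype has 1 set of calls. Tags carry no molecular identifiers. Shares and medians over all peaks are given as background, and there was no test. Gene positions are from GENCODE M1 on NCBIM37 (mm9). *Sox1* is placed by an exact match of its RefSeq promoter (GRCm38.p6), and 5 of the 10 genes had a promoter in that table that matched. CpG islands came from a running score (17 for each CG, -1 otherwise) and needed 200 bp, a GC content of 50% and 0.6 of the CG expected from base composition. Peak nearness does not show which gene is regulated. Overlap and interval code was tested on simulated data. The work used Python 3.11.15, numpy 2.4.6, pandas 2.3.3, scipy 1.17.1, numba 0.67.0 and matplotlib 3.10.9.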

Additional observations from a re-analysis of the deposited data

How the results depend on the processing

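An overlap of 50% of both peaks, the nearest annotated coding start in place of the deposited name, the fold enrichment in place of the level, and the addition of *Sox14* by position (chosen after seeing the data) left each count, ratio or share they apply to within 1.5 times its value or within the counting interval. By nearest coding start the genes counted changed, since the *Sox1* peaks at the upstream site of both lists went to *Gm5607*. That left *Sox1* with no Eed-/- peak, and the *Sox14* peaks came in. The 50% overlap changed the counts most. It left 6 of 13 Eed+/+ peaks and 6 of 9 Eed-/- peaks with a peak of the other list, the latter at the limit of 1.5 times. An FDR limit of 1% left 4 of 13 Eed+/+ peaks with an Eed-/- peak, 4 of 4 Eed-/- peaks with an Eed+/+ peak, and a covered share of 24.3%. Dividing the tags of all overlapping Eed-/- peaks by the Eed+/+ width gave a median ratio of 0.121. Narrower peaks are then spread over the wider interval, and Eed-/- tags outside called peaks are not counted. Keeping only Eed-/- peaks above 100 tags at the Eed+/+ depth left 0 pairs and gave no value. No paired analysis was possible because each genotype has 1 set of calls, and for the same reason no replicate could be left out. Least can be said of *Sox8*, whose Eed+/+ peak held 123 tags, and why it had no Eed-/- peak was not tested.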
